A study of Homo sapiens with 6 samples.

Results

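Heat shock proteins of the cytosol and the mitochondria were described here through 10 genes, HSP90AA1, HSP90AB1, HSPA1A, HSPA1B, HSPA8, HSPH1, HSPB1, DNAJB1, HSPD1 and HSPE1. They were taken by symbol from the 62111 gene IDs of the deposited tables, each matched exactly 1 ID, and all 10 passed the minimum level for testing. RNA was measured by sequencing in K562, a human erythroleukaemia line that carries BCR-ABL. The tested libraries were 3 labelled SF3B1-K700E, a substitution in the branch point recognition factor SF3B1 that recurs in blood cancers, and the comparison libraries were 3 labelled SF3B1-wt. All 6 came from the same line with no treatment named, and the labels do not say how the substitution was made, whether the K700E cells were a single clone or whether replicates were separate cultures, so every p-value reflects library-to-library spread alone, which may be technical.

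Heat shock proteins are molecular chaperones that hold and refold unfolded proteins. HSP70 proteins bind exposed stretches of a client with the help of J proteins such as DNAJB1, release them through exchange factors such as HSPH1, and can pass clients on to HSP90, which matures kinases and hormone receptors, BCR-ABL among them. In mitochondria the HSP60 chamber encoded by HSPD1, with its lid encoded by HSPE1, folds imported proteins. Under heat or other protein stress the transcription factor HSF1 binds heat shock elements, inverted repeats of the letters GAA, in front of these genes. HSPA1A, HSPA1B, HSPB1 and DNAJB1 respond strongly, whereas HSPA8 and HSP90AB1 are made at high levels in unstressed cells.

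The promoters below are shown because HSPA1A, HSPA1B, HSPB1 and DNAJB1 were the members with the widest spread between WT libraries, with HSPA8 beside them as the constitutive HSP70 gene. Each is the 250 bases before an annotated start, from RefSeq on GRCh38.p14, written 5′ to 3′ on the gene's own strand. Capitals mark GAANNTTC or TTCNNGAA, the shortest forms of the heat shock element, searched on both strands with overlaps allowed. The windows are chr6:31815293-31815542 (plus strand) for HSPA1A, chr6:31827488-31827737 (plus strand) for HSPA1B, chr7:76302423-76302672 (plus strand) for HSPB1, chr19:14518398-14518647 (minus strand) for the second of the DNAJB1 starts and chr11:123062137-123062386 (minus strand) for HSPA8.
HSPA1A: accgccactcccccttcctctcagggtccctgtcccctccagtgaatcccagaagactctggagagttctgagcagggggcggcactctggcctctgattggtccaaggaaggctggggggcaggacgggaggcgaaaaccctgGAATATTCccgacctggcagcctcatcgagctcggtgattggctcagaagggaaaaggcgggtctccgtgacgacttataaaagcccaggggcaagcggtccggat
HSPA1B: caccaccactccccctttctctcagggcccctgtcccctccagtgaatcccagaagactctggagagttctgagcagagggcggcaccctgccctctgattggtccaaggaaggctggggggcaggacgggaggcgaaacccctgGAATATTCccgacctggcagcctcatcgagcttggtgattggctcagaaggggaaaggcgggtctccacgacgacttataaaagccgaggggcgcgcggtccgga
HSPB1: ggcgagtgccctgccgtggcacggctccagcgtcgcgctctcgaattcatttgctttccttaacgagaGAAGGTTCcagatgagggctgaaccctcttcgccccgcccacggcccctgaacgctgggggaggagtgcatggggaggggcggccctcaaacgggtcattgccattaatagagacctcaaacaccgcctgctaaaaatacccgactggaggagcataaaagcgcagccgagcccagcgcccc
DNAJB1: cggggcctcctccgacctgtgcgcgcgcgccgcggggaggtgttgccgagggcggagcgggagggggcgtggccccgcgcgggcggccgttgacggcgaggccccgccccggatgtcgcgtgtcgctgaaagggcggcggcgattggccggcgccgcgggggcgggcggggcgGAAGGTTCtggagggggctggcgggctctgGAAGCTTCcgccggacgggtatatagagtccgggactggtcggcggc
HSPA8: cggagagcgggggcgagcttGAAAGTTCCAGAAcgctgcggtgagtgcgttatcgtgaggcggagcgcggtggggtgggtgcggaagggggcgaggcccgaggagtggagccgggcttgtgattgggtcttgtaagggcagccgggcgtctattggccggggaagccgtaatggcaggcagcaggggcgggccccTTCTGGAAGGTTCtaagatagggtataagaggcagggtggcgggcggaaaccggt
HSPA1A and HSPA1B have the same match, which began 106 and 105 bases before their starts, and their 2 windows were identical at 235 bases of the alignment (93.6%). The single match of HSPB1 began 182 bases before its start, the DNAJB1 window shown had 2 matches and that of HSPA8 had 4, in overlapping pairs. The windows of the other DNAJB1 starts had no match. All 10 members had a window in the table, 16 windows in all because some genes have several starts. A match was present in 8 of the 16 windows, and 8 members had a match in at least 1 window. Of all 35116 windows given by RefSeq, 11.6% had a match, and by gene 3813 of 27305 had a match in at least 1 window. HSP90AA1, HSP90AB1, HSPA8 and HSPD1 also had a longer form, GAANNTTC followed by NN and GAA or TTCNNGAA followed by NN and TTC, which 0.441% of all windows held. By gene, 152 of the 27305 had this longer form in at least 1 window. HSPH1 and HSPE1 had no match of these letters in the windows searched.

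The libraries held 111.6, 123.0 and 126.5 (K700E) and 104.6, 133.6 and 136.6 (WT) reads, in units of 1000000, recovered from the TPM values. SF3B1 stood at 160, 136 and 118 TPM in K700E and 144, 98.9 and 115 TPM in WT (limma adjusted p 0.602), and gene totals cannot show the substitution. The K562 identity genes were present, with summed levels of 3411 to 7528 TPM in K700E and 2826 to 5147 TPM in WT for 8 globin and erythroid genes. Of 8 markers of B, T, myeloid, stromal, epithelial and endothelial cells 7 were matched. Together these 7 summed to 7.44 to 8.81 TPM in K700E and 5.42 to 6.95 TPM in WT, with KRT5 at 0 in every library. WT replicate 3 lay between the other WT libraries in 75.9% of genes tested. In bulk RNA, fewer cells of a kind and less RNA per cell cannot be told apart.

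The members spanned a wide range of levels per length (TPM), and the 4 highest had the same order in both groups. HSP90AB1 had the highest level in every library, between 3788 and 4351 TPM in K700E and between 4017 and 5283 TPM in WT. HSPA8, HSP90AA1 and HSPD1 came next in that order, and each exceeded the gene after it in 6 of 6 libraries. HSP90AB1, HSP90AA1 and HSPA8 made up 85.2 to 87.6% of the summed TPM of the 10 genes in K700E libraries and 82.9 to 87.5% in WT libraries. The 10 genes took 0.939, 0.749 and 0.803% of all TPM in K700E replicates 1, 2 and 3 and 0.924, 0.863 and 0.843% in WT replicates 1, 2 and 3. The groups overlapped in that share. The other 6 genes lay between 19.5 and 145 TPM in K700E and between 26.0 and 258 TPM in WT. Among them DNAJB1 exceeded HSPB1 in 3 of 6 libraries, HSPB1 exceeded HSPA1A in 4 and HSPA1A exceeded HSPE1 in 2, so these neighbours had no stable order. By mean level HSPA1A had rank 9 of the 10 in K700E and rank 5 in WT.

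**Figure D1:**
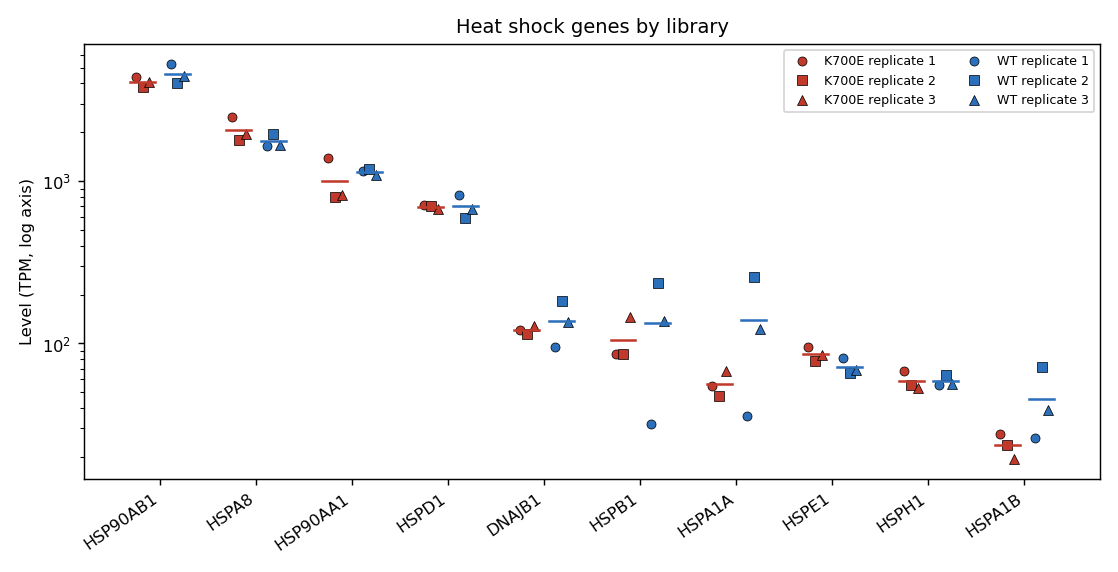
Level of each heat shock gene in every library (TPM, log axis), with K700E in red left of WT in blue, marker shape for the replicate number and a bar for the group mean. HSPA1A runs from 47.7 to 67.5 TPM in K700E and from 35.6 to 258 TPM in WT, while HSPD1 stays between 595 and 824 TPM in all 6 libraries.

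The comparison asked whether the levels of chaperone genes depended on SF3B1 genotype. None of the 10 members passed limma at a Benjamini-Hochberg adjusted p of 0.05 over the 15493 genes tested, where 1.38% of genes passed, 1.15% higher in K700E (178 genes) and 0.232% lower (36 genes). By unadjusted p 1 member, HSPA1B, lay under 0.05, against 16.5% of all genes, and a fit of the recovered reads by limma-voom gave the same counts, 0 called and 1 under 0.05 unadjusted, again HSPA1B. The library values of the groups overlapped in every member, while 24.0% of all genes did not overlap. The median log2 difference of the members was -0.07, against 0.13 for all genes tested, and only HSPA8 and HSPE1 exceeded that median. Median-ratio scaling moved the median of all genes to -0.04, so differences are also given relative to the median gene. With 3 libraries in each group, an exact two-sided permutation test of 1 gene has 0.1 as its smallest p.

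**Figure D2:**
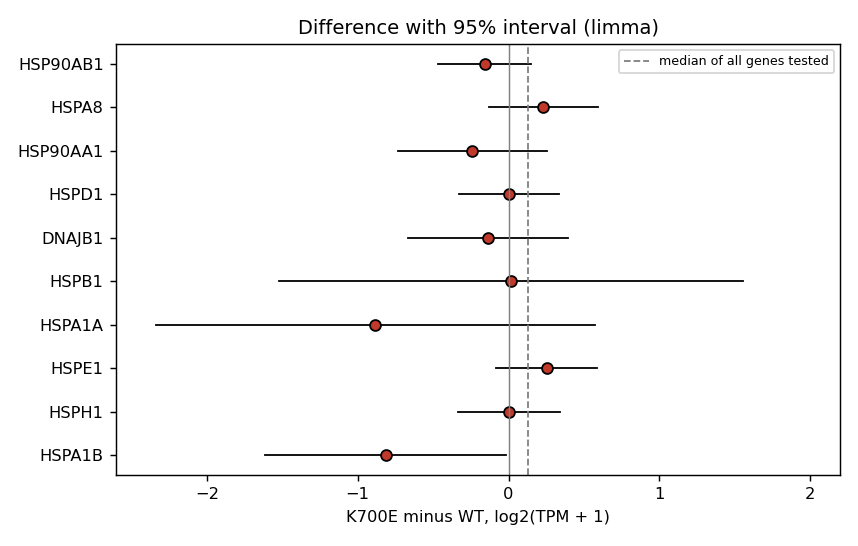
Difference between K700E and WT in log2(TPM + 1) for each member (points) with the 95% interval of limma (lines), and the median of all genes as a dashed line at 0.13. The intervals of HSPA1A and HSPB1 are the widest, and that of HSPA1B alone lies below 0.

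The HSP90 genes encode an inducible form, HSP90AA1, and a constitutive form, HSP90AB1. HSP90AA1 (GRCh37 chromosome 14, 102547079 to 102606023, minus strand) had 1380, 804 and 818 TPM in K700E replicates 1, 2 and 3 and 1159, 1186 and 1087 TPM in WT replicates 1, 2 and 3. K700E replicate 1 lay above every WT library and the other K700E libraries below them. Its log2 difference was -0.24 (SE 0.21, limma adjusted p 0.627), or -0.37 relative to the median gene. Without K700E replicate 1 the difference was -0.49 (limma adjusted p 0.139), without K700E replicate 2 it was -0.11, without K700E replicate 3 it was -0.12 and under median-ratio scaling -0.42. HSP90AB1 (chromosome 6, 44213903 to 44221625, plus strand) had 4351, 3788 and 4100 TPM in K700E and 5283, 4017 and 4434 TPM in WT, a log2 difference of -0.16 (SE 0.13, 95% interval -0.47 to 0.15, limma adjusted p 0.602). The difference was -0.05 without WT replicate 1, -0.25 without WT replicate 2 and -0.34 under median-ratio scaling. The HSP90AA1 to HSP90AB1 ratio of levels was 0.317, 0.212 and 0.200 in K700E and 0.219, 0.295 and 0.245 in WT, so the groups overlapped.

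The constitutive HSP70 gene HSPA8 and the exchange factor gene HSPH1 had overlapping levels in the groups. HSPA8 (chromosome 11, 122928197 to 122933043, minus strand) had 2499, 1790 and 1941 TPM in K700E and 1643, 1956 and 1672 TPM in WT. K700E replicate 1 was again the highest library, and the other values overlapped (log2 difference 0.23, SE 0.15, limma adjusted p 0.506). The difference was 0.090 without K700E replicate 1 and 0.046 under median-ratio scaling. HSPH1 (chromosome 13, 31709110 to 31736525, minus strand) had 67.8, 55.7 and 52.8 TPM in K700E and 55.1, 63.7 and 56.3 TPM in WT. Its difference was 0.00 (95% interval -0.33 to 0.34), with the sign turning to -0.18 under median-ratio scaling. K700E replicate 1 was the highest K700E library for 7 of the 10 members and for 47.2% of all genes.

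The mitochondrial chaperonin genes HSPD1 and HSPE1 lie head to head on chromosome 2 and are read from a shared promoter region. HSPD1 (198351308 to 198364998, minus strand) had 708, 704 and 669 TPM in K700E and 824, 595 and 676 TPM in WT, with WT replicates 1 and 2 on either side of all K700E libraries. Its difference was 0.00 (95% interval -0.33 to 0.33, limma adjusted p 0.994), and -0.18 under median-ratio scaling. HSPE1 (198364864 to 198368173, plus strand) had 95.04, 77.8 and 84.3 TPM in K700E and 81.8, 65.3 and 68.6 TPM in WT. Only WT replicate 1 reached into the K700E range (log2 difference 0.25, SE 0.14, limma adjusted p 0.440), and median-ratio scaling gave a difference of 0.070. The HSPD1 to HSPE1 ratio was 7.45, 9.06 and 7.94 in K700E and 10.1, 9.11 and 9.86 in WT, all K700E values below all WT values, though K700E replicate 2 and WT replicate 2 were close. This ratio was not tested. The level of HSPE1 is uncertain, since 307 of its 876 exon bases also belong to exons of other genes, 115 to HSPD1 on the opposite strand and 192 to the readthrough gene HSPE1-MOB4, which is listed at 0 in all 6 libraries.

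The inducible HSP70 genes HSPA1A and HSPA1B had the largest differences among the members, with a spread between WT libraries that was as large. HSPA1A (chromosome 6, 31783320 to 31785723, plus strand, a single exon) had 54.8, 47.7 and 67.5 TPM in K700E replicates 1, 2 and 3. In WT it had 35.6, 258 and 122 TPM in replicates 1, 2 and 3. WT replicate 1 lay below every K700E library and WT replicates 2 and 3 above them. The log2 difference was -0.88 (SE 0.62, 95% interval -2.34 to 0.57, limma adjusted p 0.530), or -1.01 relative to the median gene. It was -1.65 without WT replicate 1 (limma adjusted p 0.0624) and -0.23 without WT replicate 2 (0.848).

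HSPA1B (chromosome 6, 31795515 to 31798031, plus strand, a single exon), which encodes a nearly identical protein, had 27.5, 23.6 and 19.5 TPM in K700E and 26.0, 71.5 and 39.0 TPM in WT. WT replicate 1 lay within the K700E range and WT replicates 2 and 3 above it (log2 difference -0.81, SE 0.34, unadjusted p 0.0463, limma adjusted p 0.292). Leaving out WT replicate 1 gave -1.15 (limma adjusted p 0.0934) and leaving out WT replicate 2 gave -0.43 (0.426). The 2 genes could not be fully separated, because 71.3% of the 50-base stretches in annotated HSPA1A transcripts also occur in HSPA1B. In addition, 920 of the 2517 exon bases of HSPA1B also belong to the gene ENSG00000285565 on the same strand, which is listed at 0 in all 6 libraries. The summed level of HSPA1A and HSPA1B, which does not depend on how reads were split between these 2 genes but would miss reads left uncounted, was 82.3, 71.3 and 86.9 TPM in K700E and 61.6, 330 and 161 TPM in WT. Against HSPA8, the ratio of that sum was 0.0329, 0.0398 and 0.0448 in K700E and 0.0375, 0.169 and 0.0964 in WT, so WT replicate 1 again lay among the K700E libraries.

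HSPB1, the gene of the small heat shock protein HSP27 that holds unfolded clients without ATP, and DNAJB1, the J protein that drives HSP70 in refolding, followed the same order of WT libraries. HSPB1 (chromosome 7, 75931990 to 75933612, plus strand) had 86.1, 85.7 and 145 TPM in K700E and 31.8, 235 and 137 TPM in WT. The lowest and the highest library were both WT. Its log2 difference was 0.02 (SE 0.66, 95% interval -1.52 to 1.55, limma adjusted p 0.993), and it was -0.80 without WT replicate 1, 0.62 without WT replicate 2 and -0.17 under median-ratio scaling. DNAJB1 (chromosome 19, 14625581 to 14640120, minus strand) had 121, 114 and 129 TPM in K700E and 95.5, 183 and 135 TPM in WT. The 3 K700E libraries lay inside the WT range (log2 difference -0.14, SE 0.23, limma adjusted p 0.807). The difference was -0.38 without WT replicate 1, 0.0895 without WT replicate 2 and -0.32 under median-ratio scaling.

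HSPA1A, HSPA1B, HSPB1 and DNAJB1 varied far more between WT libraries than between K700E libraries. The highest WT library exceeded the lowest 7.26-fold for HSPA1A, 7.38-fold for HSPB1, 2.75-fold for HSPA1B and 1.92-fold for DNAJB1. Among K700E libraries the same ratios were 1.41, 1.69, 1.41 and 1.13. The SD of log2(TPM + 1) over WT libraries was 1.43 for HSPA1A and 1.47 for HSPB1, both at percentile 99.9 of the genes tested, whereas the median gene had 0.23. For the other 6 members the WT ratio of highest to lowest lay between 1.09 (HSP90AA1) and 1.39 (HSPD1). HSP90AA1, also inducible, showed the opposite, with an SD of 0.44 over K700E libraries and 0.07 over WT libraries. A wide WT spread was thus not a trait of inducible genes as a class. The WT ratio was 1.10 for DNAJA1, another gene that HSF1 induces. It was 4.77 for STUB1 and 3.04 for HSPBP1, which were listed here as HSP70 exchange factors and not as HSF1 targets. WT SD exceeded K700E SD in 59.6% of all genes, and the difference in spread was not tested. The fewest reads behind any member's value were 1366, for HSPB1 in WT replicate 1.

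**Figure D3:**
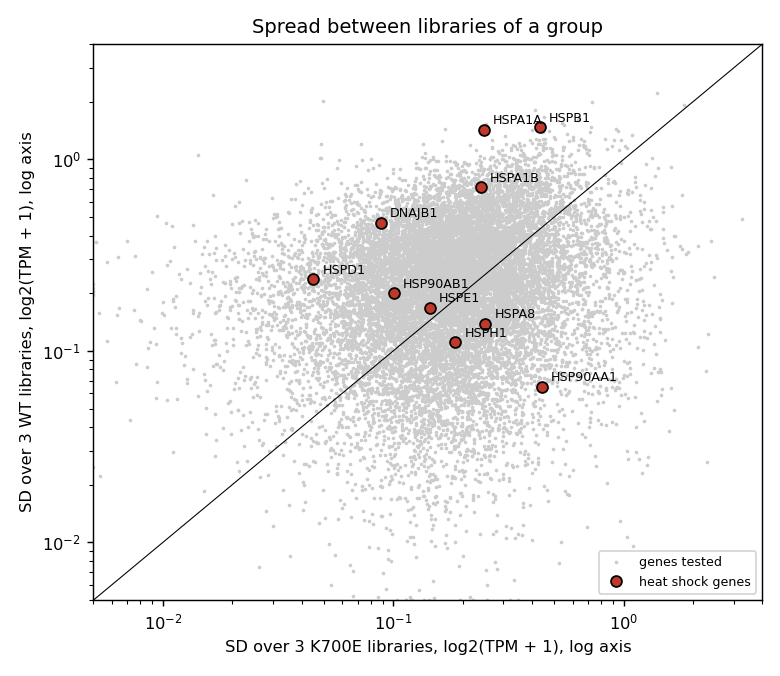
SD of log2(TPM + 1) over the 3 K700E libraries (horizontal, log axis) and over the 3 WT libraries (vertical, log axis) for 15493 genes tested (grey, values under 0.005 drawn at the edge) and the members (red), with the line of equal spread. HSPA1A and HSPB1 lie near the top at WT SDs of 1.43 and 1.47, and HSP90AA1 lies far below the line.

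The order of WT libraries in these genes, with replicate 1 lowest and replicate 2 highest, was present in 6 of 10 members, HSPA8 and HSPH1 among them, and in 32.3% of all genes tested, while the reverse order was present in 3 members and in 43.6% of all genes. Genes tested were divided into 5 equal bins by transcript GC content, from bin 1 (lowest) to bin 5 (highest). The median log2 difference of WT replicate 2 from WT replicate 1 was -0.53, -0.32, -0.12, 0.20 and 0.72 in bins 1 to 5. HSPB1 (64.3% GC), HSPA1A (59.3%) and HSPA1B (58.7%) were in bin 5 and DNAJB1 (55.1%) in bin 4. The same difference was 2.84 for HSPB1, 2.83 for HSPA1A, 1.42 for HSPA1B and 0.93 for DNAJB1. HSPB1 and HSPA1A were at percentile 99.7 of bin 5, HSPA1B at percentile 88.1 of bin 5 and DNAJB1 at percentile 94.4 of bin 4. Of the other members, HSPH1 (39.7% GC) was at percentile 96.2 of bin 1, and in bin 2 HSPA8 was at percentile 92.6, HSP90AA1 at 84.3, HSPE1 at 50.5 and HSPD1 at 33.2. HSP90AB1 was at percentile 23.0 of bin 3. The part of GC content in the spread was not tested. The K700E against WT medians of the bins lay between 0.10 and 0.14. Between K700E libraries the medians also rose with GC content. For K700E replicate 3 from K700E replicate 1 they were -0.27, -0.20, -0.14, 0.0029 and 0.24 in bins 1 to 5.

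**Figure D4:**
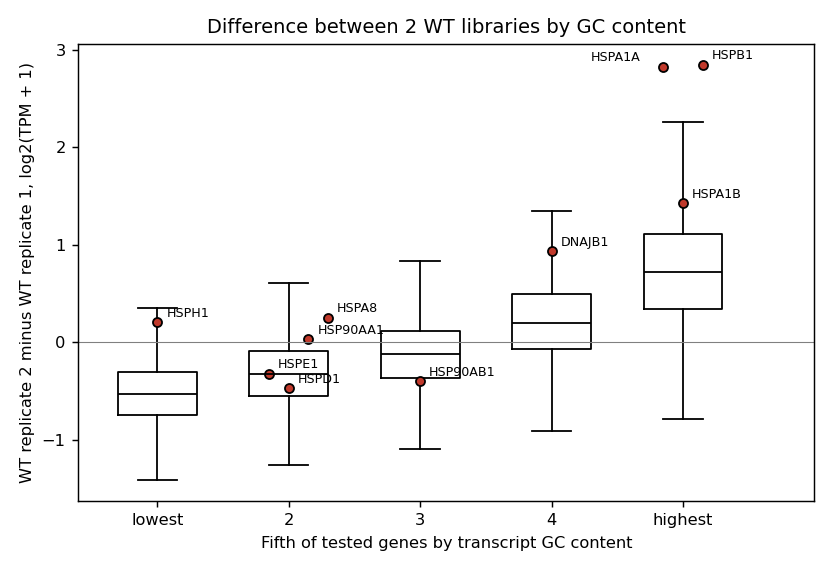
Difference of WT replicate 2 from WT replicate 1 in log2(TPM + 1) by bin of transcript GC content (5 equal bins) over the genes tested (boxes: quartiles and median, whiskers to the last gene within 1.5 box heights, outliers not drawn) with the members as red points. The medians climb from -0.53 to 0.72, and HSPA1A and HSPB1 lie at the top of bin 5, at 2.83 and 2.84.

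Beyond the members, 100 further genes of the chaperone system were matched, and none of the 89 tested passed limma over all genes, where 1.38% did. By unadjusted p 3 were higher and 4 lower under 0.05, which is 7.87% of them against 16.5% of all genes. A fit by limma-voom to the recovered reads called 0 of them too. Library values did not overlap in 14.6% of the 89, against 24.0% of all genes. The median of the 89 log2 differences was 0.07, which lies -0.06 from the median gene. Each list below is therefore given by its nearest genes, none of which passed.

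Of the heat shock factor genes 0 of 4 tested passed the threshold. HSF1, the factor that drives the heat response, had 42.8, 46.0 and 60.7 TPM in K700E and 25.2, 81.1 and 58.6 TPM in WT. Its order of WT libraries was that of HSPA1A, which 32.3% of all genes tested also had. HSF2, a second factor of the family, had 37.2, 36.8 and 32.6 TPM in K700E and 49.1, 26.1 and 35.3 TPM in WT. It had the reverse order of WT libraries, as did 43.6% of all genes tested. HSF4 stood at 16.2, 22.2 and 27.1 TPM in K700E and 16.3, 27.9 and 28.0 TPM in WT. HSBP1, a small protein that binds the trimer of HSF1, had the smallest limma adjusted p of the 4, 0.487, at 34.5, 30.4 and 28.1 TPM in K700E and 28.5, 24.4 and 26.3 TPM in WT.

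Of 17 other genes that HSF1 is known to induce, 0 passed and the median lay -0.05 from the median gene. K700E values lay above all WT values in 2 of the 17, and in 19.0% of all genes tested. HSPA6, an HSP70 gene that is nearly silent without stress, had 5.72, 4.89 and 9.71 TPM in K700E and 8.12, 13.2 and 11.7 TPM in WT (log2 difference -0.65, SE 0.27, limma adjusted p 0.291). CRYAB, the small heat shock protein alpha-B crystallin, had 5.87, 2.09 and 1.53 TPM in K700E and 4.52, 7.62 and 5.54 TPM in WT (limma adjusted p 0.320). Both were lowest in WT replicate 1 and highest in WT replicate 2 among WT libraries, as were 32.3% of all genes tested. HSPA4L, an HSP110 gene, stood the other way at 14.2, 11.5 and 8.66 TPM in K700E and 9.44, 4.89 and 7.06 TPM in WT (limma adjusted p 0.285).

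Other HSP70 and HSP110 genes and their helpers held the genes nearest to the threshold. DNAJA2, a J protein of the cytosol that works with HSPA8, had 98.0, 86.6 and 74.2 TPM in K700E and 59.3, 45.8 and 49.8 TPM in WT, with no overlap (log2 difference 0.73, SE 0.16, limma adjusted p 0.0863). Among 18 J proteins tested DNAJC7 also did not overlap, at 56.2 to 67.4 TPM in K700E and 51.0 to 55.7 TPM in WT (limma adjusted p 0.497), and DNAJB5 stood at 4.99 to 7.12 TPM in K700E and 6.81 to 10.5 TPM in WT (0.296). ST13, the HSP70-interacting protein Hip that slows client release, had 289, 294 and 307 TPM in K700E and 415, 409 and 387 TPM in WT, with no overlap (log2 difference -0.44, SE 0.11, limma adjusted p 0.105). The other 8 exchange factors and cofactors included BAG3, a partner of HSP70 in autophagy of misfolded proteins, at 39.5 to 46.8 TPM in K700E and 30.0 to 39.5 TPM in WT (limma adjusted p 0.435), and BAG2 at 13.5 to 18.8 TPM in K700E and 8.98 to 15.1 TPM in WT (0.357). HSPA1L, which lies beside HSPA1A on the opposite strand, had 5.75, 6.59 and 9.09 TPM in K700E and 10.4, 9.76 and 11.2 TPM in WT (log2 difference -0.51, SE 0.19, limma adjusted p 0.237). It shares 2.46% of the HSPA1A stretches of 50 bases.

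HSP90 cochaperones, the TRiC and prefoldin complexes, and mitochondrial chaperones lay close to the median gene. Of 16 cochaperones the genes nearest to the threshold were PPID, a cyclophilin, at 72.4 to 101 TPM in K700E and 66.3 to 71.3 TPM in WT, CDC37, which brings kinases to HSP90, at 267 to 330 TPM in K700E and 155 to 275 TPM in WT, and FKBP5, an immunophilin, at 25.1 to 35.1 TPM in K700E and 14.9 to 28.9 TPM in WT, with limma adjusted p of 0.326, 0.328 and 0.329. Of 14 TRiC and prefoldin genes, which fold actin and tubulin, PFDN6 stood at 82.2 to 114 TPM in K700E and 64.7 to 81.4 TPM in WT (limma adjusted p 0.314), PFDN1 at 136 to 148 TPM in K700E and 119 to 127 TPM in WT (0.436) and PFDN5 at 517 to 613 TPM in K700E and 626 to 657 TPM in WT (0.443). Of 16 mitochondrial chaperones and proteases CLPB, a disaggregase of the intermembrane space, stood at 7.58 to 11.6 TPM in K700E and 6.02 to 6.51 TPM in WT (limma adjusted p 0.277). The protease genes AFG3L2, at 115 to 137 TPM in K700E and 94.1 to 119 TPM in WT, and SPG7, at 24.4 to 29.6 TPM in K700E and 17.7 to 23.7 TPM in WT, had limma adjusted p of 0.374 and 0.417. The medians of these lists lay -0.02, -0.11 and -0.06 from the median gene. Of 8 small heat shock protein genes matched only CRYAB and HSPB3 reached the minimum level, HSPB3 at 4.85 to 5.84 TPM in K700E and 5.44 to 6.78 TPM in WT (limma adjusted p 0.610).

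**Figure D5:**
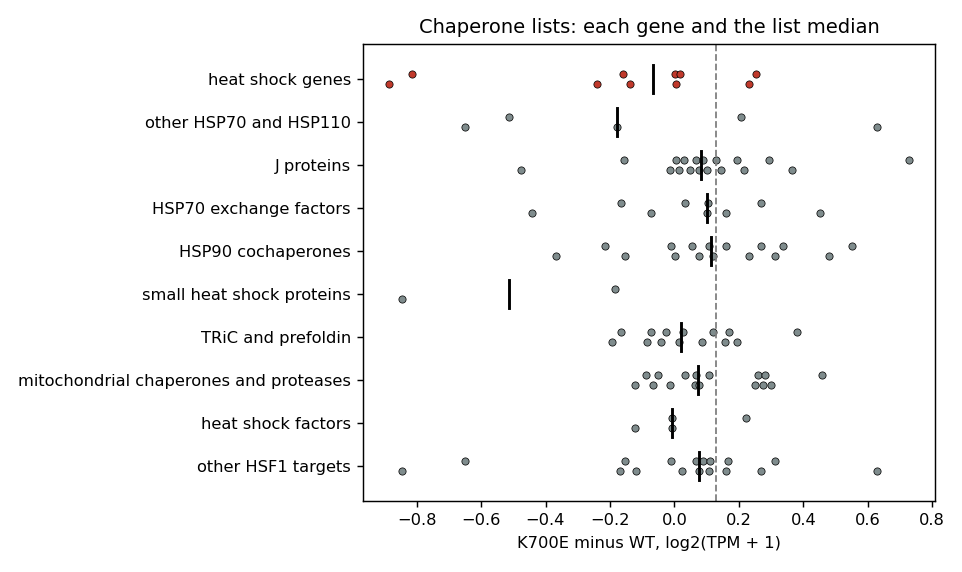
Difference between K700E and WT in log2(TPM + 1) for each gene tested (points, members in red) by chaperone list, with the list median as a black bar and the median of all genes as a dashed line at 0.13. No gene shown passed the test, and HSPA1A at -0.88 and DNAJA2 at 0.73 lie at the ends.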

How the data were processed

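RNA of K562 cells was sequenced as mRNA libraries, per the labels' protocols. Deposited values were TPM (reads per base of gene, scaled to 1000000 a library), which the authors gave in a separate table for each genotype, so a difference in processing between the tables would coincide with genotype. Tools named, per the submitters' processing notes, were featureCounts 2.0.1, TopHat2 2.1, cutadapt 2.10 and DESeq2, with the build GRCh37, while the WT column names have the ending that STAR gives. For strand and multi-mapping reads the setting is not given in the sources used here. In each library, 100% of the products of TPM and length were whole multiples of what 1 read is worth (tolerance 0.01), from which reads were recovered. These reads count depth, and intervals cover the spread between libraries.

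Genes averaging 1 TPM or more over the libraries entered limma 3.58.1 (R 4.3.3) as log2(TPM + 1), with a trend, two-sided, Benjamini-Hochberg adjusted at 0.05 over all genes. Fold changes on this scale understate low genes. The scripts were tested on simulated data, where 5 runs recovered 49.4% of 2-fold and 89.6% of 4-fold changes. A gene that was not called may therefore still differ 2-fold. Symbols were matched for 94.4% of IDs, and GC content came from GENCODE transcripts by gene ID. The members and lists were chosen with earlier results of these data known. From each list the 3 genes with the smallest p are named, with HSF1 and KRT5 chosen after their values were seen. Of the lists, HSPB11 and PECAM1 are not analysed here. Python 3.11.15, pandas 2.3.3, numpy 2.4.6 and matplotlib 3.10.9 were used. The alternatives tried were a pseudocount of 0.1 or 5, a mean of 5 TPM as the filter or none, median-ratio scaling, limma without the trend, each library left out, a replicate block and limma-voom on recovered reads.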

Additional observations from a re-analysis of the deposited data

How the results depend on the processing

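No member was called under any of the 14 alternatives, and the lowest limma adjusted p of any member was 0.0624, for HSPA1A without WT replicate 1. HSPA1A, HSPA1B, HSP90AA1 and HSP90AB1 kept negative differences and HSPA8 and HSPE1 positive ones in all 14. Without WT replicate 1, 5 members had an unadjusted limma p under 0.05, as did 3760 of the 15493 genes. These were HSPE1, higher in K700E, and HSPA1A, HSPA1B, HSPB1 and DNAJB1, lower in K700E. Leaving out any other library gave 0 or 1 such members. Signs turned in members near 0. Under median-ratio scaling the differences were -0.18 for HSPH1, -0.17 for HSPB1 and -0.18 for HSPD1, and under limma-voom -0.045, -0.060 and -0.040, and HSPB1 was at -0.0046 with a pseudocount of 5. Leaving out 1 library took HSPH1 from -0.10 to 0.075, HSPB1 from -0.80 to 0.62, DNAJB1 from -0.38 to 0.0895, HSPD1 from -0.11 to 0.13, HSF4 from -0.37 to 0.068 and HSF2 from -0.23 to 0.22. The count of calls over all genes, 178 higher and 36 lower, was 0 and 0 with no filter (4891 of 38861 unadjusted under 0.05), 73 and 19 at a minimum of 5 TPM, 111 higher under median-ratio scaling, and 59 and 8 with the replicate block. Leaving out 1 library gave 0 to 144 higher and 0 to 38 lower, with 0 without WT replicate 3 (1462 unadjusted). The cause was not tested. Same-numbered libraries deviated with correlations of 0.28, -0.19 and 0.30, and K700E replicates 2 and 3 correlated best with a WT library of another number. Deviations from a mean of 3 libraries depend on each other, so these values cannot show whether the numbers pair the libraries. The replicate block called no member.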

Other observations

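The genes whose profile over the 6 libraries was most like the mean profile of the 10 members were ATP6V0B, a subunit of the vacuolar proton pump, MOV10, an RNA helicase, CD63, a tetraspanin of late endosomes, FLOT1, a membrane raft protein, and CDKN2C, an inhibitor of CDK4 and CDK6. Likeness was the root mean square difference of centred log2(TPM + 1), between 0.038 and 0.058 over 6 libraries among 7767 protein-coding genes averaging 10 TPM or more. The mean profile, at -0.29 in WT replicate 1 and 0.44 in WT replicate 2, did not stand for every member. Among WT libraries 6 members were lowest in replicate 1 and highest in replicate 2, and 3 (HSP90AB1, HSPD1 and HSPE1) had the reverse order. ATP6V0B had 162, 141 and 143 TPM in K700E and 127, 216 and 175 TPM in WT. Among the members, HSP90AB1 and HSPD1 were the most alike (0.105) and HSPA1A was most like HSPB1 (0.480).

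Rows whose symbol names them as pseudogenes or readthroughs of the members' families numbered 77, of which 34 were at 0 in every library. Genes known only by a clone name were not counted, such as AC004949.1, which shares 50-base stretches with HSPA8. The summed level of the 77 rows was 14.5, 12.3 and 10.2 TPM in K700E and 15.8, 14.6 and 14.99 TPM in WT. HSP90AB3P was the highest at 3.57 to 4.09 TPM in K700E and 3.95 to 4.72 TPM in WT, and its transcript holds 13.8% of the 50-base stretches of HSP90AB1. HSPA8P13 stood at 1.23 to 1.79 TPM in K700E and 2.46 to 3.17 TPM in WT, and HSPD1P1 at 0.835 to 0.908 TPM in K700E and 0.800 to 1.16 TPM in WT.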
